A study of Mus musculus with 8 samples.

Results

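Solute carriers are membrane proteins, encoded by the Slc and Slco genes, that move small molecules such as amino acids, sugars, ions, metals, nucleosides and lipids across the plasma membrane and the membranes of organelles. The 171 solute carrier genes described here come from a mouse Zfp462 knockout study with 8 RNA-seq libraries. They were chosen by symbol (Slc with a family number, the letter a and a member number, or the Slco form) and by a mean level of at least 5 CPM over the 8 libraries. For this rule, CPM is the count of a gene scaled by the total of its library (count / total × 1000000). Levels printed for single libraries, groups and classes also use TMM factors, as given with the processing. The count table holds 55401 genes, 349 of them with such a symbol. Of the 349, 176 lay under 5 CPM, and the rule set 3 aside, 2 of which had passed that level. All 171 genes were among the 17125 genes that had enough counts to be tested, and all are annotated as protein coding. Their mean level over the 8 libraries chose them, so that level is a description only. It ran from 5.05 to 1541 CPM with a median of 27.5, and 154 genes had a mean of at least 5 CPM in each of the 4 groups. The other 17 had a group mean under 5 CPM and are members through their higher groups. Among them were Slc34a2, Slc1a1, Slc15a1, Slc13a5 and Slc37a2, named below for their fold changes. A gene as low in all 4 groups as in its lowest would not have been a member. The last genes inside the threshold were Slc26a10 with 5.05, Slco5a1 with 5.31 and Slc22a7 with 5.43 CPM, and the first outside it were Slc30a3 with 4.93, Slc8a2 with 4.81 and Slc25a53 with 4.79 CPM.

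The libraries came from R1 cells, an established mouse embryonic stem cell (ESC) line, and each of the 4 groups had 2 libraries. Control (wild-type) and Zfp462 knockout ESCs were grown on gelatin in medium with serum and leukaemia inhibitory factor (LIF), which keeps ESCs undifferentiated. Control and knockout embryoid bodies (EBs), aggregates in which ESCs begin to differentiate, were made from the same kinds of cells held as single-cell suspensions in Petri dishes for 3 days. Zfp462 encodes a zinc finger protein of the nucleus. The knockout cells were stable lines, and the labels do not say how they were made, how many clones they represent, or whether 2 replicates came from separate cultures, so the p-values rest on a spread among libraries that may be technical.

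Most solute carriers either use a sodium or proton gradient to pull their substrate into the cell or exchange one substrate for another. Amino acid exchangers of the Slc7 family work as light chains bound to Slc3a2, the heavy chain that brings them to the cell surface, while Slc25 carriers span the inner mitochondrial membrane and link mitochondrial metabolism to the cytosol. Fast-dividing stem cells are known for a high uptake of glucose and amino acids, and the absorptive endoderm around the embryo is known for a broad set of uptake carriers.

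Several amino acid carriers are known targets of the transcription factor ATF4, which binds the amino acid response element, and its core, TGATGNAAN, was searched on both strands in RefSeq promoter windows. The windows (build GRCm38.p6) run from 250 bases before to 50 bases after a start, and the 250 bases before it were searched. RefSeq windows were on hand for 127 of the 171 genes, 170 windows in all, and 6 of the 170 (3.53%) held the core, beside 3.44% of all 32851 windows. In 114 of the 170, the bases after the start were found in a transcript of the same gene in the GENCODE M21 annotation. The 4 stretches of 200 bases before a start that follow are shown because Slc7a11 is the textbook carrier with this element, Slc50a1 and Slco2a1 were higher in knockout ESCs, and Slc7a7 was higher in EBs. Each is written 5′ to 3′ on the strand of its gene, with the core in capitals (GRCm38.p6 coordinates).
Slc7a11, chr3:50443614-50443813, minus strand: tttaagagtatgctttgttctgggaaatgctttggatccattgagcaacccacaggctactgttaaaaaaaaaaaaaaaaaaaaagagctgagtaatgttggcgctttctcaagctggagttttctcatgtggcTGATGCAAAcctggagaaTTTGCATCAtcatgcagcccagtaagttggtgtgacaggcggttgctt
Slc50a1, chr3:89270571-89270770, minus strand: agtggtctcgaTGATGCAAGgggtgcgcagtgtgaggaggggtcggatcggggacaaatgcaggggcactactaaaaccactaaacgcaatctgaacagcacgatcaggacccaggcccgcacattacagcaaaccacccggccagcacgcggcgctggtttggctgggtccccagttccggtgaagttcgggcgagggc
Slco2a1, chr9:103008287-103008486, plus strand: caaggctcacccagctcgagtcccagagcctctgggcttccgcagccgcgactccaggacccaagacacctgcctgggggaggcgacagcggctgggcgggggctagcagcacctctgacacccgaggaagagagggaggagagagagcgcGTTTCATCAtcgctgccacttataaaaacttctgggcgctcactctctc
Slc7a7, chr14:54417945-54418144, minus strand: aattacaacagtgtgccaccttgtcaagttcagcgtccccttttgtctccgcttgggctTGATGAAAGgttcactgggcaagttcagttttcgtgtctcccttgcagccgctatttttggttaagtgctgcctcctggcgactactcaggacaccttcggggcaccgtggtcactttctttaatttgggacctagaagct
The Slc7a11 stretch held the core on both strands, and the match in Slco2a1 was on the opposite strand. The Slco2a1 stretch lies inside the gene span given below and not at its annotated start. Slc7a11, the light chain of the cystine and glutamate exchanger, was picked after its values were seen and stood at 7.17 and 6.27 CPM in control ESCs, 6.05 and 6.99 in knockout ESCs, 11.5 and 8.78 in control EBs and 6.78 and 6.92 in knockout EBs. Control EBs were the highest group, and none of the comparisons passed the test (adjusted p from 0.0874 to 0.936). Of the windows of members higher in knockout ESCs 2 of 29 held the core, of those lower 0 of 26, and of those higher in both knockout comparisons 0 of 13. A match describes letters in a window and is not a binding site.

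The libraries held 12119763 to 16228426 counts. Zfp462 itself stood at 183 and 197 CPM in control ESCs and 104 and 107 in knockout ESCs, and at 153 and 130.3 in control EBs and 102 and 102 in knockout EBs. It was lower in both knockout groups, with log2 fold changes of -0.85 ± 0.10 (SE, adjusted p = 0.000366) and -0.47 ± 0.10 (SE, adjusted p = 0.0207). The labels do not give the deleted part, so counts over the whole gene check the genotype only in part. Knockout EB replicate 1 stood apart: the summed level of 16 adult liver markers, such as Alb, was 2288 CPM there and 6.57 to 34.8 CPM in the other 7 libraries. The 2 knockout ESC libraries differed along GC content (Pearson's r of 0.71 between a member's log2 difference of replicates and its GC content, over the 171 genes of this pair of libraries, a description). More than 2-fold apart between replicates were 5 members in knockout ESCs (Slc12a9, Slc15a2, Slc2a8, Slc5a5 and Slc7a8), 3 in knockout EBs (Slc27a2, Slc38a3 and Slc7a2) and 0 in either control group. The SD of the log2 difference of replicates was 0.415 over members and 0.398 over all tested genes of at least 5 CPM in knockout ESCs. In knockout EBs it was 0.279 and 0.329.

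Per kilobase of exon, the members spanned levels from 0.403 to 405 CPM per kb with a median of 5.59. The highest was Slc25a5, an ADP/ATP carrier of the inner mitochondrial membrane, at 405 CPM per kb, followed by Slc2a3, a high-affinity glucose transporter, at 212, and Slc25a4, another ADP/ATP carrier, at 127. Next came the mitochondrial phosphate carrier Slc25a3 at 91.0, the lactate and pyruvate transporter Slc16a1 at 68.7, and the neutral amino acid transporter Slc38a2 at 67.3. They were followed by the heavy chain Slc3a2 at 63.8, the lactate exporter Slc16a3 at 51.7, Slc25a39, which carries glutathione into mitochondria, at 50.7, and the citrate carrier Slc25a1 at 40.6. These 10 genes cover energy exchange, sugar, lactate and amino acid transport. The leaders of the other classes were lower: Slc20a1, a phosphate transporter, at 35.5, and Slc29a1, a nucleoside transporter, at 34.6. Further leaders were Slc19a2, a thiamine transporter, at 25.3, Slc39a1, a zinc importer, at 21.3, Slc35a4, of the nucleotide sugar transporter family, at 15.9, and Slc44a1, a choline transporter, at 11 CPM per kb.

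By substrate, the largest classes were 33 mitochondrial carriers, 30 genes for amino acids and peptides, 25 for inorganic ions and protons, 23 for metals and haem, and 20 for organic ions, bile acids, lipids and choline. The summed level of all 171 genes moved little, from 10820 to 11766 CPM over the 8 libraries. Amino acid and peptide carriers summed to 2077 to 2215 CPM in the 4 ESC libraries and 2739 to 2844 CPM in the 4 EB libraries, so the ranges did not overlap. In control cells Slc38a2 alone made up much of this rise (its levels are given below). Sugar carriers went the other way, with 1919 to 2000.1 CPM in ESCs and 1390.1 to 1745 CPM in EBs, a sum that Slc2a3 dominates. Carriers of nucleosides and nucleobases summed to 315 and 316 CPM in control ESCs, most of it from Slc29a1, and to 205 to 239.8 CPM in every other library.

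The first comparison asked how loss of Zfp462 changed the carriers of undifferentiated ESCs. By edgeR's quasi-likelihood test with Benjamini-Hochberg adjustment over all genes tested, 30 of the 171 genes were higher and 20 lower in knockout ESCs. Of all tested genes, 8.3% were called higher and 6.2% lower, 14.5% in all (9.21% and 8.32% of the 11327 tested genes that reached the same 5 CPM). The median log2 fold change of the 171 was 0.04, beside -0.03 for all genes tested, and 11 genes rose and 4 fell at least 2-fold. The share of all tested genes at this 2-fold limit, or with a library left out, was not counted, here or in the comparisons below. Counts of members from such fits can therefore not be set against all genes. Without control ESC replicate 1 or 2 the counts came to 12 and 6 or 10 and 5, without knockout ESC replicate 1 to 33 and 40, and without EB control replicate 1 or 2 to 26 and 13 in both cases. Without knockout ESC replicate 2 and knockout EB replicate 1 together, 44 were higher and 24 lower. In bulk RNA, fewer cells of a type and less RNA per cell cannot be told apart. All 14 extraembryonic endoderm markers, such as Gata6 and Lama1, were higher in knockout ESCs as well: their summed level was 3385 to 3532 CPM in control and 12498 to 14598 CPM in knockout ESCs, none at 0. The 8 markers of 2-cell-like cells were all higher too (82.1 to 88.7 CPM in control, 306 to 400 CPM in knockout), and 5 of 8 pluripotency markers were lower (3732 to 3790 and 2503 to 2726 CPM). The part of these cells in the carrier results was not tested.

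**Figure D1:**
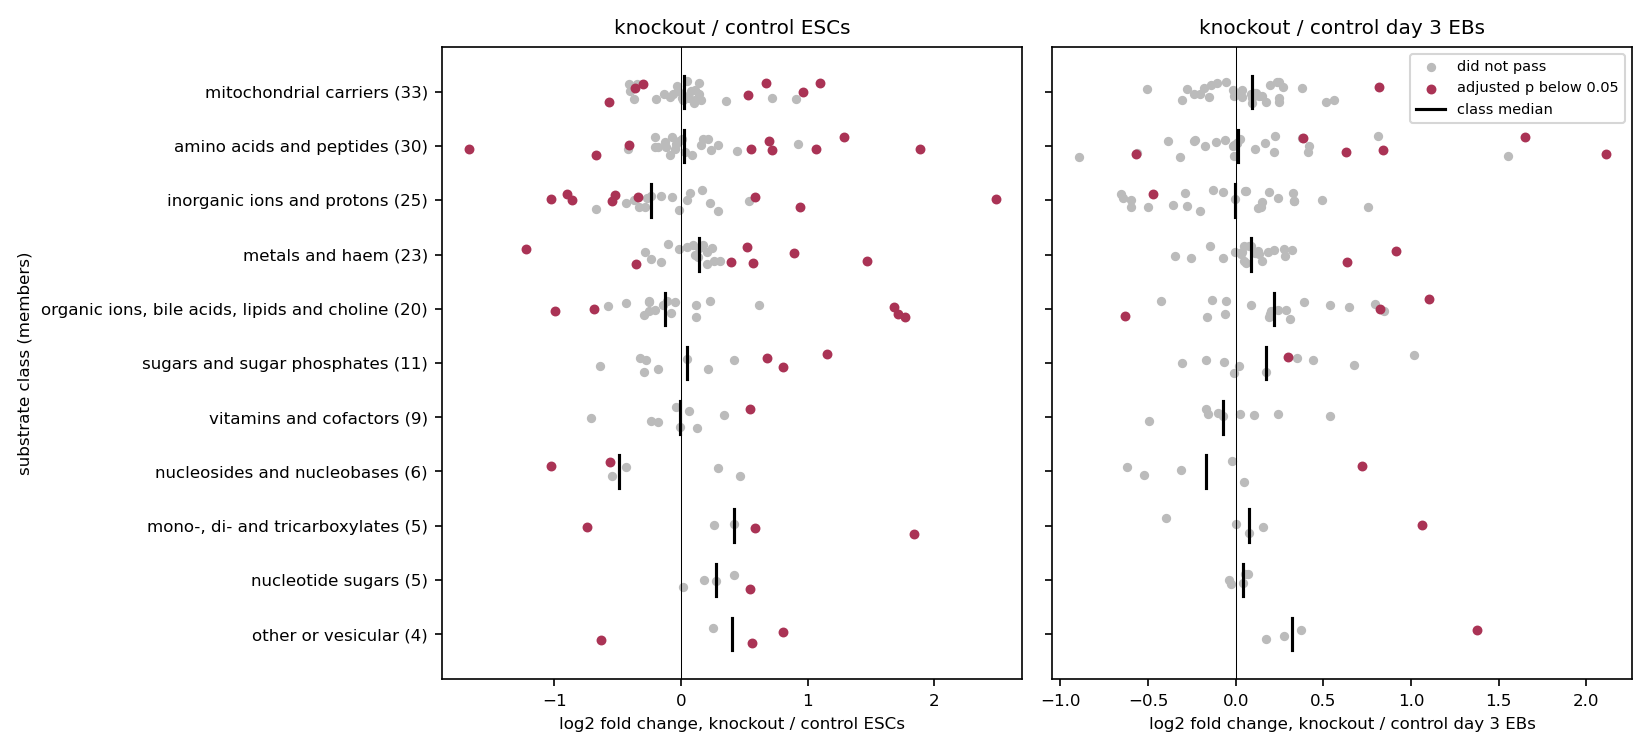
Log2 fold change of each of the 171 solute carrier genes (points, spread vertically within a class for legibility) by substrate class, in knockout against control ESCs (left) and knockout against control day 3 EBs (right). Red points had an adjusted p below 0.05 and black bars mark class medians; red points lie on both sides of 0 in most classes of the ESC panel, while the EB panel has 14 red points above 0 and 3 below.

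Among the 30 genes for amino acids and peptides, 6 were higher and 3 lower in knockout ESCs (class median 0.02). Slc1a1, a high-affinity transporter of glutamate, aspartate and cysteine, had 3.58 and 5.47 CPM in control and 16.3 and 17.5 CPM in knockout ESCs, a log2 fold change of 1.89 ± 0.31 (SE, adjusted p = 0.00267). Slc7a6, a light chain that exchanges cationic for neutral amino acids, stood at 112 and 112 against 222 and 247 CPM (log2 fold change 1.07 ± 0.09 SE, adjusted p = 4.65e-05). In both genes the knockout libraries lay above the control libraries by far more than the replicates differed. Slc36a4, a proton-independent carrier of proline and tryptophan, went from 7.74 and 7.13 to 15.1 and 21.1 CPM (log2 fold change 1.29 ± 0.24 SE, adjusted p = 0.00484). Slc7a1, an importer of arginine and lysine, had 83.7 and 94.2 against 158 and 136 CPM (log2 fold change 0.72 ± 0.11 SE, adjusted p = 0.00128). Its relative Slc7a3 fell from 121 and 112 to 66 and 80.4 CPM (log2 fold change -0.67 ± 0.11 SE, adjusted p = 0.0022). The aromatic amino acid transporter Slc16a10 was near the threshold (log2 fold change 0.55 ± 0.16 SE, adjusted p = 0.0455). Slc15a2, a peptide transporter, had the lowest value of all members (log2 fold change -1.67 ± 0.32 SE, adjusted p = 0.00657), with 15.2 and 13.9 CPM in control and 2.62 and 6.48 in knockout ESCs. The calls of Slc7a1, Slc7a3 and Slc7a6 passed without any single library. Slc1a1 did not pass without control ESC replicate 1 (adjusted p = 0.0635), Slc36a4 and Slc15a2 not without control ESC replicate 1 or 2 (0.0572 to 0.0893), and Slc16a10 not without any one of 7 libraries, all but knockout ESC replicate 1 (0.0633 to 0.253). Slc1a1 shares 31.9% of its exon bases with the opposite-strand gene 4430402I18Rik (mean of 0.632 CPM), and without a stated strand setting their reads cannot be told apart.

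Of the 5 carboxylate carriers, 2 were higher and 1 lower in knockout ESCs. Slc13a5, which imports citrate with sodium, stood at 18.2 and 24.1 CPM in control and 77.4 and 74.9 CPM in knockout ESCs (log2 fold change 1.84 ± 0.16 SE, adjusted p = 5.76e-05). Slc16a1 was also higher (233 and 215 against 313 and 358 CPM, log2 fold change 0.59 ± 0.09 SE, adjusted p = 0.00179), and Slc16a3, which exports lactate from glycolytic cells, was lower (208 and 219.7 against 159 and 98.2 CPM, log2 fold change -0.74 ± 0.17 SE, adjusted p = 0.0169). The 2 knockout libraries differed for Slc16a3 more than the control libraries did, yet both lay below them, as the rule that named it required. Of 11 sugar and sugar phosphate carriers, 3 were higher and 0 lower by edgeR (unadjusted p below 0.05: 3 and 2, DESeq2: 2 and 0). The first was Slc37a2, a glucose 6-phosphate carrier of the endoplasmic reticulum (4.56 and 4.85 against 10.4 and 10.6 CPM, log2 fold change 1.15 ± 0.28 SE, adjusted p = 0.022). The others were Slc45a3 (log2 fold change 0.81 ± 0.21 SE, adjusted p = 0.0261) and Slc50a1, a sugar exporter (log2 fold change 0.68 ± 0.16 SE, adjusted p = 0.0173). The most abundant sugar carrier, Slc2a3, had 1714 and 1703 CPM in control and 1764 and 1772 CPM in knockout ESCs, a log2 fold change of 0.05 ± 0.07 (SE, adjusted p = 0.694). Of the genes called here, Slc13a5 alone passed without any single library. Slc16a1 did not pass without control ESC replicate 2 (adjusted p = 0.0565), and the 3 sugar carriers not without control ESC replicate 1 or 2 (0.137 to 0.183). Slc16a3 did not pass without either control ESC library or either control EB library (0.0542 to 0.166). Slc16a3 shares 5.75% of its exon bases with Csnk1d on the opposite strand.

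The 33 mitochondrial carriers had 4 genes higher and 3 lower (class median 0.02). Slc25a4 rose from 251 and 267 CPM in control to 398 and 428 CPM in knockout ESCs (log2 fold change 0.67 ± 0.08 SE, adjusted p = 0.000507). Slc25a5, which does the same ADP/ATP exchange, fell from 733 and 720.0 to 549 and 633 CPM (log2 fold change -0.30 ± 0.08 SE, adjusted p = 0.0359). Slc25a36, a pyrimidine nucleotide carrier, was lower at 352 and 345 against 217 and 255 CPM (log2 fold change -0.56 ± 0.10 SE, adjusted p = 0.00517). The other named gains were Slc25a24, a carrier of ATP-magnesium and phosphate (log2 fold change 1.09 ± 0.26 SE, adjusted p = 0.0196), the dicarboxylate carrier Slc25a10 (log2 fold change 0.96 ± 0.24 SE, adjusted p = 0.0245) and the acylcarnitine carrier Slc25a20 (log2 fold change 0.53 ± 0.13 SE, adjusted p = 0.0212). Slc25a4 passed without any single library. Each of the others missed the threshold without control ESC replicate 1 or 2 (adjusted p from 0.0514 to 0.244 over the libraries that ended a call). Slc25a10 also missed it without knockout ESC replicate 1, Slc25a24 without knockout ESC replicate 2, Slc25a20 without knockout EB replicate 2, and Slc25a5 without any one of the 4 EB libraries.

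Of 23 genes for metals and haem, 5 were higher and 2 lower (class median 0.15). Slc39a8, which imports zinc and manganese, had 5.54 and 6.51 CPM in control and 17.3 and 16.2 CPM in knockout ESCs (log2 fold change 1.47 ± 0.18 SE, adjusted p = 0.000501). Slc30a4, a zinc exporter of vesicles, had 13.8 and 13.0 CPM in control against 24.3 and 25.4 CPM in knockout ESCs (log2 fold change 0.89 ± 0.15 SE, adjusted p = 0.003). Slc30a2, of the same zinc exporter family, fell from 13.1 and 14.9 to 5.91 and 6.11 CPM (log2 fold change -1.22 ± 0.19 SE, adjusted p = 0.00184). Zinc carriers thus moved in both directions within 1 family. Slc40a1, ferroportin, the cell's iron exporter, stood at 9.45 and 10.3 against 13.1 and 16.2 CPM (log2 fold change 0.57 ± 0.15 SE, adjusted p = 0.0267). Slc39a8 and Slc30a2 passed without any single library, Slc30a4 missed the threshold without control ESC replicate 2 (adjusted p = 0.0605), and Slc40a1 without any one of 7 libraries, all but knockout ESC replicate 1 (0.0557 to 0.195).

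Inorganic ion carriers had more lower than higher calls, 6 against 3 of 25 (class median -0.23). Slc34a2, a sodium-phosphate cotransporter of epithelia, nonetheless had the largest gain of all 171 genes, from 2.28 and 2.03 CPM in control to 12.1 and 12 CPM in knockout ESCs (log2 fold change 2.49 ± 0.27 SE, adjusted p = 0.000209). With a control ESC level under 5 CPM, it is a member only through its higher groups. Slc9a5, a sodium-proton exchanger, was lower (27.0 and 30.0 against 19.98 and 11.5 CPM, log2 fold change -0.86 ± 0.22 SE, adjusted p = 0.0238). Slc12a8, of the cation-chloride cotransporter family, was lower too (24.5 and 23.5 against 13.1 and 10.5 CPM, log2 fold change -1.02 ± 0.17 SE, adjusted p = 0.00266), as were the bicarbonate transporters Slc4a8 (log2 fold change -0.90 ± 0.17 SE, adjusted p = 0.00521) and Slc4a5 (log2 fold change -0.55 ± 0.12 SE, adjusted p = 0.0124). The groups did not overlap for any of these genes, but the rule that named most of them asked for this. Slc34a2 and Slc12a8 passed without any single library. Slc4a5 did not pass without control ESC replicate 1 or 2 (adjusted p from 0.096 to 0.114), Slc4a8 not without control ESC replicate 2 (0.0909), and Slc9a5 not without either control ESC or either control EB library (0.0587 to 0.216).

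Organic anion, lipid and choline carriers held 3 of the 7 largest gains. Slc44a3, a choline transporter-like gene, stood at 5.62 and 7.06 CPM in control and 19.6 and 23.9 CPM in knockout ESCs (log2 fold change 1.77 ± 0.20 SE, adjusted p = 0.000251). Slco2a1, which takes up prostaglandins, had 25.4 and 30.5 against 109 and 75.3 CPM (log2 fold change 1.72 ± 0.17 SE, adjusted p = 0.000128). Slco3a1, another organic anion transporter, had 5.94 and 5.90 against 17.6 and 20.4 CPM (log2 fold change 1.68 ± 0.21 SE, adjusted p = 0.000487). Against these, Slco4a1 fell from 15.6 and 14.4 to 8.46 and 6.62 CPM (log2 fold change -0.99 ± 0.23 SE, adjusted p = 0.0177) and Slc44a2 from 51.1 and 47.7 to 35.4 and 26.1 CPM (log2 fold change -0.68 ± 0.15 SE, adjusted p = 0.0135). Both families therefore had members on either side, and the class of 20 had 3 higher, 2 lower and a median of -0.13. The 3 gains passed without any single library, whereas Slco4a1 and Slc44a2 missed the threshold without control ESC replicate 1 or 2 (adjusted p from 0.101 to 0.138).

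Of the 6 nucleoside and nucleobase carriers, 0 were higher and 2 lower by edgeR (unadjusted p below 0.05: 2 and 3, DESeq2: 0 and 2). Slc28a1, a concentrating sodium-driven pyrimidine nucleoside transporter, had 39.2 and 41.0 CPM in control and 18.4 and 21 CPM in knockout ESCs (log2 fold change -1.02 ± 0.13 SE, adjusted p = 0.000463). Slc29a1, the main equilibrating nucleoside transporter, had 208 and 201 against 144 and 134 CPM (log2 fold change -0.56 ± 0.09 SE, adjusted p = 0.0022). Both calls passed without any single library. Both genes lay lower in each knockout library than in each control library, a description only, since genes were named by their calls. Elsewhere, Slc6a8, the creatine importer, was higher at 122 and 121 against 254 and 172 CPM (log2 fold change 0.81 ± 0.15 SE, adjusted p = 0.0052). Also higher were Slc33a1, an acetyl-CoA transporter of the endoplasmic reticulum (log2 fold change 0.55 ± 0.16 SE, adjusted p = 0.0429) and Slc35a1, which carries CMP-sialic acid into the Golgi (log2 fold change 0.54 ± 0.14 SE, adjusted p = 0.0303). Slc6a8 missed the threshold without control ESC replicate 1 or 2 (adjusted p of 0.0796 and 0.0954), and Slc33a1 and Slc35a1 without any one of at least 6 libraries (0.0527 to 0.278), among them both control ESC and all 4 EB libraries.

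In day 3 EBs fewer carriers were called between genotypes. The edgeR test called 14 of the 171 genes higher and 3 lower in knockout EBs, where 4.75% and 2.04% of all genes tested were called, 6.8% in all (5.32% and 2.68% of those that reached 5 CPM). The median log2 fold change of the 171 was 0.07, beside 0.00 for all genes tested, and 5 rose and 0 fell at least 2-fold (DESeq2 without a fold limit: 13 higher and 3 lower, unadjusted p below 0.05: 36 and 16). These counts changed with any library left out, as a group then keeps 1 library and the shared estimate of the spread changes. Knockout EB replicate 1 holds the liver markers. Without it the log2 fold change of Slc30a4 was 0.75 (0.63 with all libraries), of Slc22a23 1.06 (1.10) and of Slc44a2 -0.61 (-0.63). These sizes do not mean that the calls held: all of these genes missed the threshold without that library, as given below. Leaving out control EB replicate 1 or 2 left 3 or 4 higher and 0 lower. The knockout ESC libraries enter this comparison only through what a fit shares: the estimate of the spread, the low-count filter, the scaling and the adjustment. Without either of them more members were called in both directions. Leaving out either control ESC library left 10 and 0. Of the 17 calls, only that of Slc6a8 passed without any single library. All 14 extraembryonic endoderm markers were higher in knockout EBs too (summed level 3910 to 4096 CPM in control and 7513 to 8329 CPM in knockout EBs, none at 0). So were all 8 markers of 2-cell-like cells (22.5 to 27.1 and 145 to 166 CPM, 1 of them at 0 in control EB replicate 2) and 4 of 8 pluripotency markers (summed level 1738 to 1795 and 1776 to 1793 CPM), and 2 of 11 tested liver markers. Their part in the carrier results was not tested.

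Amino acid and peptide carriers held 5 of the 14 gains. Slc1a1 stood at 2.85 and 1.41 CPM in control and 7.68 and 11 CPM in knockout EBs (log2 fold change 2.11 ± 0.34 SE, adjusted p = 0.0054). Slc15a1, a proton-driven importer of small peptides, stood at 1.86 and 2.82 against 7.15 and 7.46 CPM (log2 fold change 1.65 ± 0.26 SE, adjusted p = 0.00461). Both started from low levels in control EBs. Slc16a10 had 11.5 and 12 against 21 and 21.1 CPM (log2 fold change 0.84 ± 0.16 SE, adjusted p = 0.0113). For the cationic amino acid importer Slc7a1 the levels were 61.7 and 57.6 against 93.3 and 91.1 CPM (log2 fold change 0.63 ± 0.11 SE, adjusted p = 0.00705), and for the exchanger Slc7a6 117 and 122 against 155 and 156 CPM (log2 fold change 0.38 ± 0.09 SE, adjusted p = 0.0305). The 1 amino acid carrier that fell was Slc1a3, a glutamate and aspartate transporter of glia, from 42.7 and 41.6 to 30.3 and 26.6 CPM (log2 fold change -0.57 ± 0.15 SE, adjusted p = 0.0446). Without control EB replicate 2 Slc1a1 missed the threshold (adjusted p = 0.0642), and without control EB replicate 1 Slc15a1 did (0.0712). Slc7a6 and Slc1a3 missed it without any one library other than the 2 of knockout ESCs (0.0917 to 0.318), Slc16a10 without any one of the 4 EB libraries (0.0656 to 0.109), and Slc7a1 without either control EB library or knockout EB replicate 1 (0.0641 to 0.0904).

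Outside the amino acid carriers, Slc6a8 had the clearest change, with 91.9 and 85.9 CPM in control and 225 and 237 CPM in knockout EBs (log2 fold change 1.38 ± 0.15 SE, adjusted p = 0.00055). Slc22a23, an organic ion transporter family member, rose from 7.63 and 9.02 to 18.4 and 17.3 CPM (log2 fold change 1.10 ± 0.21 SE, adjusted p = 0.0117). The citrate importer Slc13a5 rose from 3.71 and 4.31 to 7.46 and 9.28 CPM (log2 fold change 1.06 ± 0.20 SE, adjusted p = 0.0123), and the metal importer Slc39a8 from 16.2 and 12.9 to 26.3 and 28.7 CPM (log2 fold change 0.91 ± 0.17 SE, adjusted p = 0.0106). In each of these genes both knockout libraries lay above both control libraries, as the rule that named them required. Slc25a20 (log2 fold change 0.82 ± 0.14 SE, adjusted p = 0.00618), Slc44a3 (log2 fold change 0.82 ± 0.19 SE, adjusted p = 0.0303), the lysosomal nucleoside transporter Slc29a3 (log2 fold change 0.72 ± 0.13 SE, adjusted p = 0.00976) and Slc30a4 (log2 fold change 0.63 ± 0.15 SE, adjusted p = 0.035) were higher as well. Slc2a3 was higher by less, at 1268 and 1133 against 1464 and 1489 CPM (log2 fold change 0.30 ± 0.07 SE, adjusted p = 0.0276). The calls lower in knockout EBs were Slc44a2 (73.2 and 89.8 against 52.0 and 53.0 CPM, log2 fold change -0.63 ± 0.15 SE, adjusted p = 0.0303) and Slc4a5 (67.7 and 59.8 against 47.4 and 44.6 CPM, log2 fold change -0.47 ± 0.12 SE, adjusted p = 0.0373). Slc2a3, Slc30a4, Slc44a2, Slc44a3 and Slc4a5 missed the threshold without any one library other than the 2 of knockout ESCs (adjusted p from 0.0596 to 0.283). Slc29a3 missed it without any one of the 4 EB libraries (0.0692 to 0.0909), and Slc22a23 without either control EB library or knockout EB replicate 1 (0.0617 to 0.144). Slc13a5 did so without either control EB library or knockout EB replicate 2 (0.0740 to 0.171), Slc25a20 without control EB replicate 1 or knockout EB replicate 1 (0.0573 to 0.109) and Slc39a8 without control EB replicate 2 or knockout EB replicate 2 (0.0747 to 0.0911).

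The knockout comparisons in ESCs and in EBs share no library, and their calls were set side by side. Higher in both were 10 genes, 33.3% of the 30 higher in ESCs and 71.4% of the 14 higher in EBs: Slc13a5, Slc16a10, Slc1a1, Slc25a20, Slc30a4, Slc39a8, Slc44a3, Slc6a8, Slc7a1 and Slc7a6. Lower in both were Slc44a2 and Slc4a5, 10% of the 20 lower in ESCs and 66.7% of the 3 lower in EBs, and 0 genes were called in opposite directions. Over all genes tested, genes higher in both made up 38.0% of those higher in ESCs and 66.3% of those higher in EBs, and genes lower in both 18.3% and 55.4%. Opposite calls were rare there too, with 0.493% of the genes higher in ESCs and 0.847% of those lower in ESCs. The 10 genes span amino acids (4 genes), citrate, creatine, zinc (Slc30a4 and Slc39a8), acylcarnitine and choline. Coordinates are mm10 gene spans of the GENCODE M21 annotation, which match the deposited table for all 171 members. Slc13a5 lies at chr11:72241989-72267222, minus strand, Slc1a1 at chr19:28835049-28913960, plus strand, and Slc6a8 at chrX:73673150-73682502, plus strand. Slc39a8 lies at chr3:135825279-135888572, plus strand, Slc44a3 at chr3:121459528-121532404, minus strand, and Slc7a6 at chr8:106168857-106198706, plus strand. The levels of the 10 genes took different courses over the 4 groups. Slc13a5 was highest in knockout ESCs and lowest in control EBs, Slc39a8 was highest in knockout EBs, and Slc6a8 stood at similar levels in knockout ESCs and knockout EBs, 172 to 254 CPM, above 85.9 to 122 CPM in the 4 control libraries. Leaving out 1 library ended the ESC call of 5 of the 10 (Slc1a1, Slc6a8, Slc16a10, Slc25a20 and Slc30a4) and the EB call of 9, all but Slc6a8, with the libraries and values given above.

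**Figure D2:**
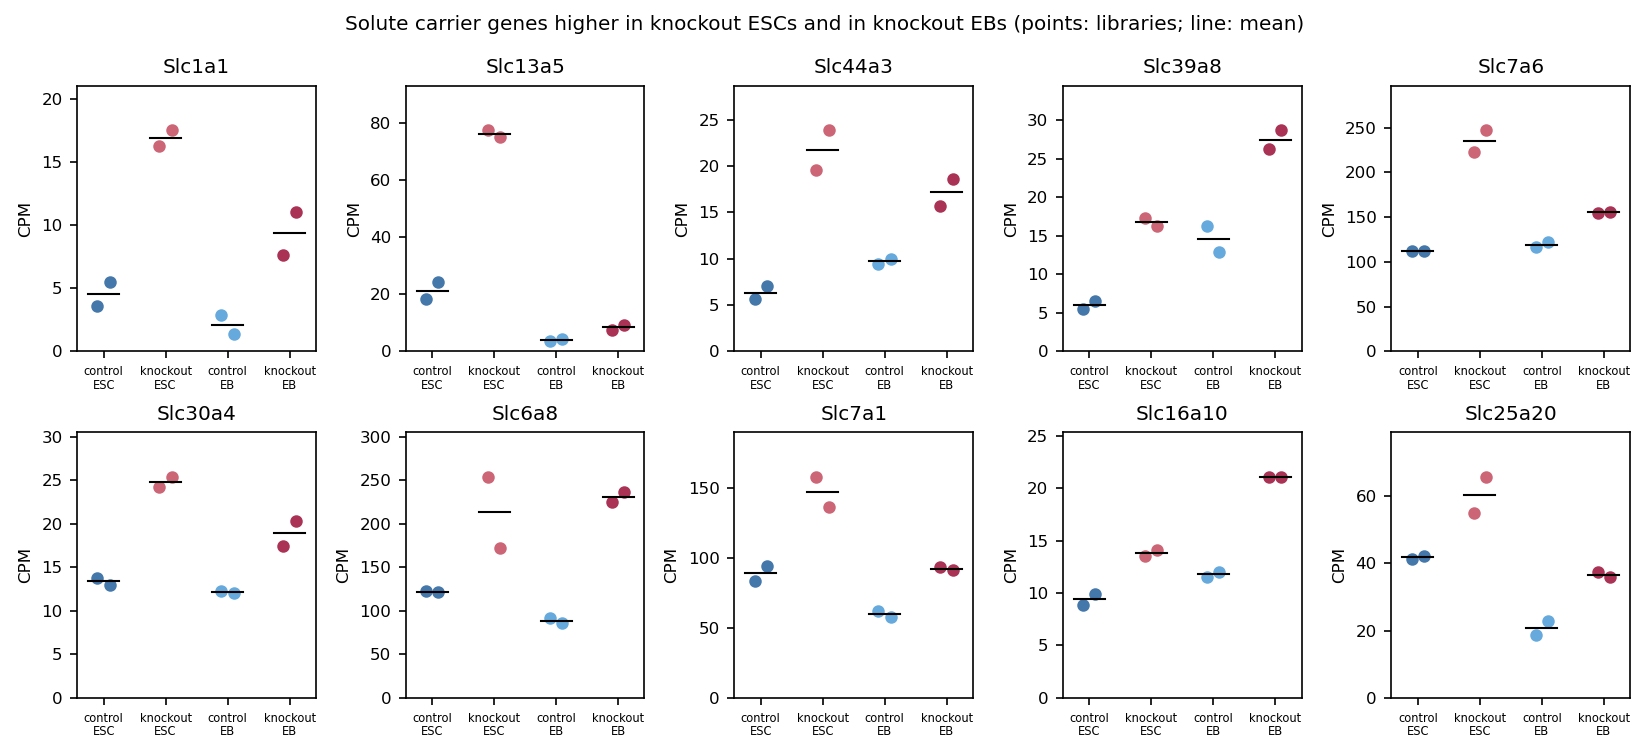
Level in CPM (linear axis from 0, 1 panel per gene) of the 10 solute carrier genes higher in knockout ESCs and in knockout EBs. Points are the 2 libraries of each group and lines their mean. In every panel both knockout libraries lie above both control libraries of the same stage, as for Slc13a5 with 74.9 and 77.4 CPM in knockout against 18.2 and 24.1 CPM in control ESCs. The genes were chosen by their calls in these libraries, so the panels are a description only.

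**Figure D3:**
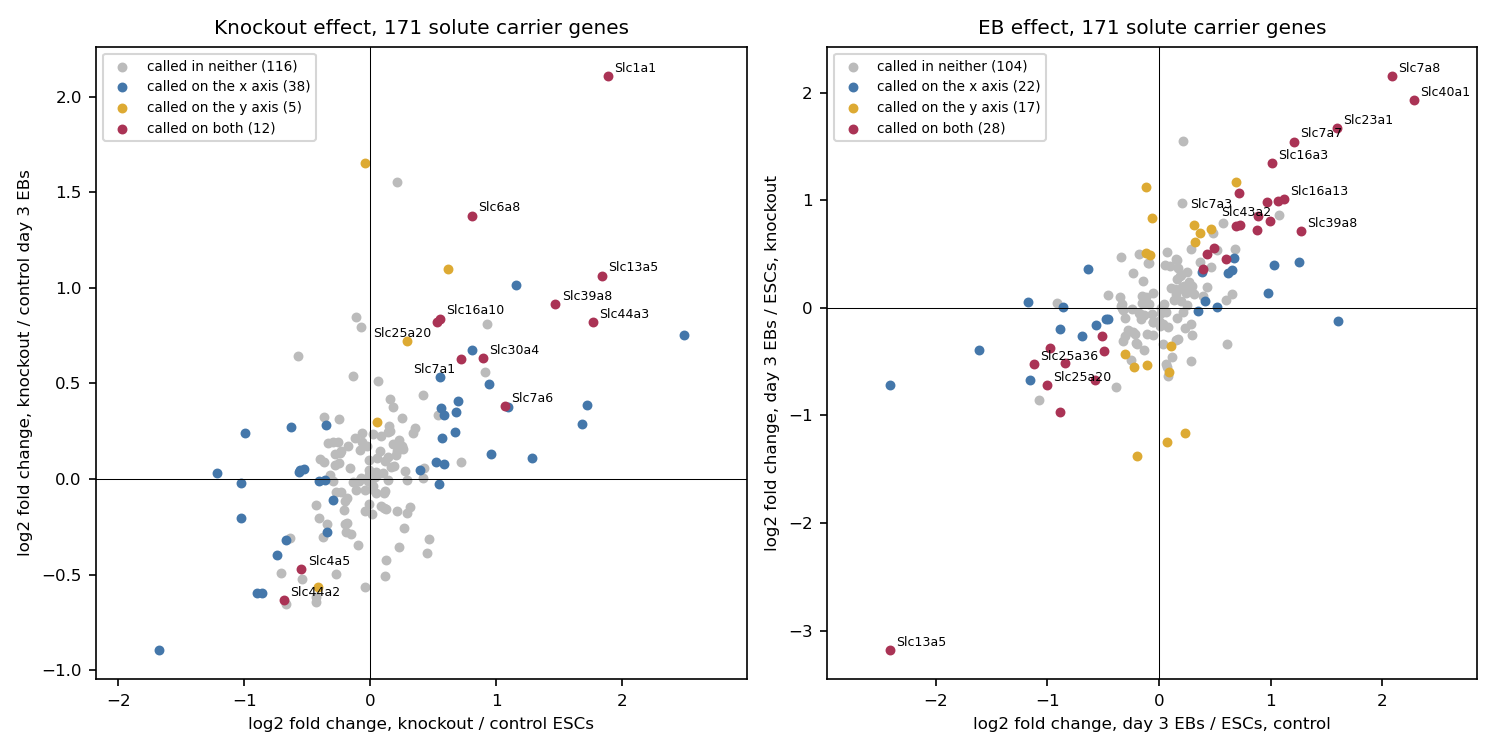
Log2 fold changes of the 171 genes, as knockout effect in ESCs against knockout effect in day 3 EBs (left) and as EB effect in control against EB effect in knockout cells (right). Colours give the calls at an adjusted p below 0.05: 12 genes were called on both axes on the left and 28 on the right, and each of these lies in the same direction on both axes.

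Some close relatives differed in opposite directions between genotypes, in ESCs or in EBs. The 4 pairs given here were chosen after their values were seen, and their ratios of CPM per kb are a description with no test. Slc7a1 and Slc7a3, both arginine and lysine transporters, had ratios of 0.227 and 0.275 in control ESCs and 0.784 and 0.556 in knockout ESCs, and 0.106 and 0.0983 in control EBs and 0.205 and 0.190 in knockout EBs. Slc7a3 thus remained above Slc7a1 in all 8 libraries, by less in the knockout ones of each stage. The ADP/ATP carriers Slc25a4 and Slc25a5 had ratios of 0.239 and 0.259 in control ESCs and 0.507 and 0.472 in knockout ESCs, and 0.256 and 0.225 in control EBs and 0.318 and 0.297 in knockout EBs. For the lactate transporters Slc16a1 and Slc16a3 the ratio was 1.34 and 1.17 in control ESCs, 2.37 and 4.38 in knockout ESCs, 0.869 and 0.920 in control EBs and 1.17 and 1.32 in knockout EBs. The order of this pair therefore turned between control ESCs, where Slc16a1 led, and control EBs, where Slc16a3 led. The glutamate transporters Slc1a1 and Slc1a3 had ratios of 0.175 and 0.229 in control ESCs and 1.10 and 0.944 in knockout ESCs, and 0.0690 and 0.0350 in control EBs and 0.262 and 0.428 in knockout EBs.

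**Figure D4:**
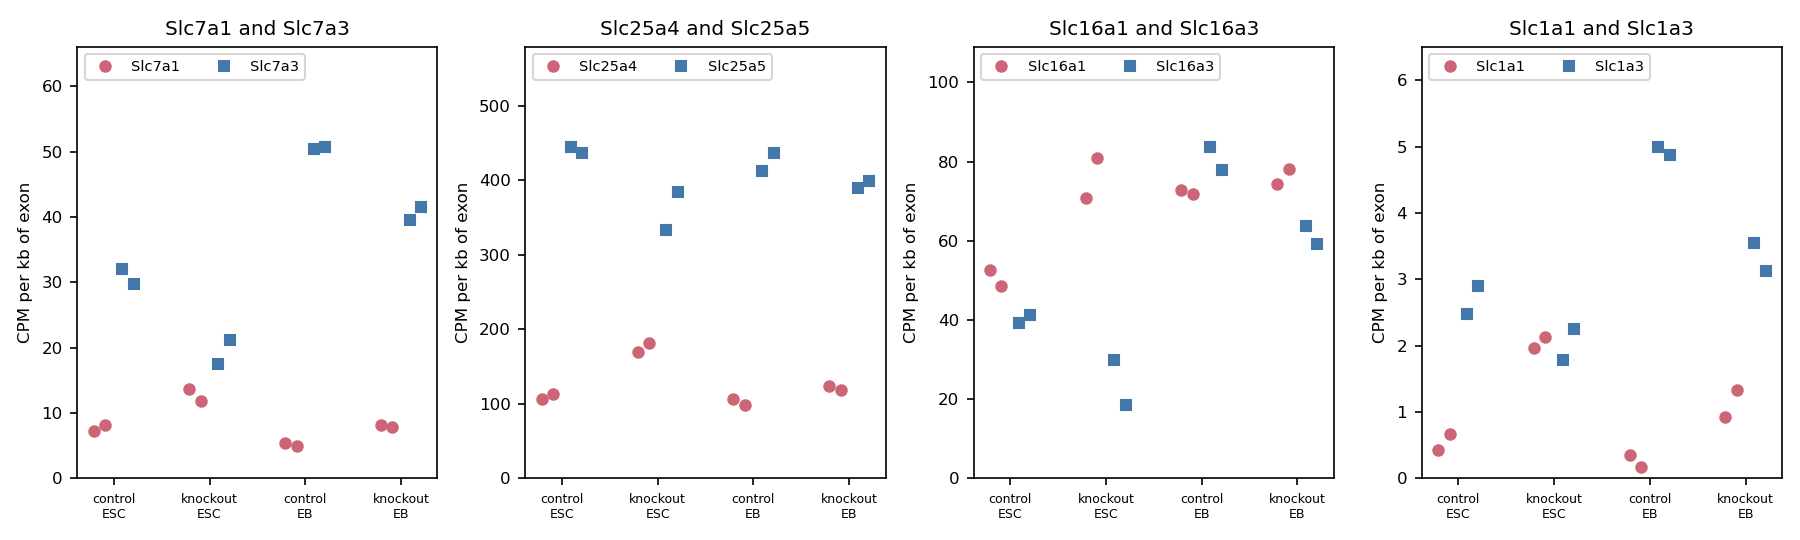
Level per kilobase of exon (CPM per kb, linear axes from 0) of 4 pairs of related carriers in the 8 libraries, with red circles for the first gene and blue squares for the second. In control ESCs Slc7a1 lies far below Slc7a3 (ratios of 0.227 and 0.275), and in knockout ESCs the pair lies closer together (0.784 and 0.556).

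The change from ESCs to day 3 EBs was read in control cells first. Of the 171 genes, 30 were higher and 20 lower in control EBs, where 8.6% and 9.63% of all genes tested were called, 18.2% in all (10.5% and 11.5% of those that reached 5 CPM), and 11 rose and 7 fell at least 2-fold. The median log2 fold change of the 171 was 0.08, beside -0.01 for all genes tested. These counts came to 11 and 9 without control ESC replicate 1, 8 and 8 without control ESC replicate 2, 16 and 12 without control EB replicate 1, 14 and 10 without control EB replicate 2, and 51 and 29 without either knockout ESC library. Of the 8 pluripotency markers, 6 were lower and 1 higher in the same comparison (summed level 3732 to 3790 CPM in ESCs and 1738 to 1795 CPM in EBs). Of the 14 extraembryonic endoderm markers 7 were higher and 3 lower (3385 to 3532 and 3910 to 4096 CPM), and of the 8 markers of 2-cell-like cells 6 were lower (82.1 to 88.7 and 22.5 to 27.1 CPM). Their part in the carrier results was not tested.

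The largest rise in control EBs was that of the iron exporter Slc40a1, which went from 9.45 and 10.3 CPM in control ESCs to 46.7 and 49.6 CPM in control EBs (log2 fold change 2.29 ± 0.14 SE, adjusted p = 5.6e-06). Amino acid and peptide carriers had 9 of 30 higher and 2 lower. Slc7a8, a light chain for neutral amino acids, had 2.77 and 1.78 CPM in ESCs against 9.15 and 9.96 CPM in EBs (log2 fold change 2.08 ± 0.46 SE, adjusted p = 0.0117). Slc7a7, the light chain that exports cationic amino acids, had 77.8 and 74.6 against 177 and 175 CPM (log2 fold change 1.21 ± 0.09 SE, adjusted p = 1.02e-05). Slc38a2 had 447 and 455 against 798 and 863 CPM (log2 fold change 0.88 ± 0.10 SE, adjusted p = 0.000213). Slc3a2, the heavy chain of Slc7a7 and Slc7a8, was higher by less (log2 fold change 0.39 ± 0.10 SE, adjusted p = 0.0244). Slc1a3 (log2 fold change 0.88 ± 0.15 SE, adjusted p = 0.00279) and Slc7a3 (log2 fold change 0.72 ± 0.11 SE, adjusted p = 0.00134) were higher too. The named exceptions were Slc15a1, which fell from 12 and 12.8 to 1.86 and 2.82 CPM (log2 fold change -2.41 ± 0.26 SE, adjusted p = 0.000157), and Slc7a1 (log2 fold change -0.58 ± 0.11 SE, adjusted p = 0.00494). The calls of Slc40a1, Slc7a7, Slc38a2, Slc7a3 and Slc15a1 passed without any single library. Slc7a8 and Slc3a2 did not pass without any one of the 4 control libraries (adjusted p from 0.0804 to 0.215), Slc7a1 not without control ESC replicate 2 or control EB replicate 2 (0.0656 and 0.0908) and Slc1a3 not without control ESC replicate 1 (0.0585). Slc7a7 shares 7.0% of its exon bases with Oxa1l on the opposite strand.

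Among the other classes, Slc23a1, which imports ascorbate, was higher in control EBs (8.39 and 11.7 CPM in ESCs and 33.4 and 27.7 in EBs, log2 fold change 1.59 ± 0.18 SE, adjusted p = 0.000259). The carboxylate carriers split. Slc16a3 was higher (208 and 219.7 against 446 and 415 CPM, log2 fold change 1.01 ± 0.17 SE, adjusted p = 0.00296), as were Slc16a13 (log2 fold change 1.12 ± 0.16 SE, adjusted p = 0.00124) and Slc16a1 (log2 fold change 0.52 ± 0.09 SE, adjusted p = 0.00359). Slc13a5 fell from 18.2 and 24.1 to 3.71 and 4.31 CPM (log2 fold change -2.41 ± 0.19 SE, adjusted p = 2.05e-05). Slc39a8 (log2 fold change 1.27 ± 0.18 SE, adjusted p = 0.00119), Slc34a2 (log2 fold change 1.61 ± 0.27 SE, adjusted p = 0.00291) and Slc25a10 (log2 fold change 1.26 ± 0.24 SE, adjusted p = 0.0057) also rose. Of the organic anion carriers, Slco4c1 (log2 fold change -1.61 ± 0.22 SE, adjusted p = 0.000809), Slco4a1 (log2 fold change -1.17 ± 0.24 SE, adjusted p = 0.00709) and Slco5a1 (log2 fold change -1.16 ± 0.26 SE, adjusted p = 0.0122) were lower. Short of the threshold were Slco2a1 (log2 fold change 0.07 ± 0.17 SE, adjusted p = 0.804) and Slco3a1 (log2 fold change 0.23 ± 0.22 SE, adjusted p = 0.501). Slc29a1 was lower, at 208 and 201 CPM in control ESCs and 102 and 106 in control EBs (log2 fold change -0.98 ± 0.09 SE, adjusted p = 6.35e-05), and so was Slc2a3, at 1714 and 1703 against 1268 and 1133 CPM (log2 fold change -0.51 ± 0.07 SE, adjusted p = 0.000707). The calls of Slc23a1, Slc16a13, Slc13a5, Slc39a8, Slco4c1, Slc29a1 and Slc2a3 passed without any single library. Slc16a1 and Slc34a2 missed the threshold without control ESC replicate 2 (adjusted p of 0.0790 and 0.0582), and Slco4a1 and Slc25a10 without either control ESC library or control EB replicate 2 (0.05005 to 0.100). Slc16a3 missed it without either control ESC library or control EB replicate 1 (0.0528 to 0.0622), and Slco5a1 without any one of the 4 control libraries (0.0742 to 0.100).

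In knockout cells 28 genes were higher and 17 lower in EBs than in ESCs, where 8.23% and 7.11% of all genes tested were called, 15.3% in all (10.3% and 8.76% of those that reached 5 CPM), and 9 rose and 4 fell at least 2-fold. The median was 0.06, beside -0.00033 for all genes tested. Without knockout EB replicate 1 the counts were 16 and 7, and without its replicate 2 they were 18 and 9. They were 59 and 19 if knockout ESC replicate 1 was left out, and 19 and 11 if either control ESC library was. Of the 14 extraembryonic endoderm markers 4 were higher and 8 lower in knockout EBs than in knockout ESCs (summed level 7513 to 8329 and 12498 to 14598 CPM). Of the 8 markers of 2-cell-like cells 7 were lower (145 to 166 and 306 to 400 CPM), and of the 8 pluripotency markers 5 were lower and 1 higher (1776 to 1793 and 2503 to 2726 CPM). Of 11 tested liver markers 8 were higher, with the sum of all 16 at 2288 CPM in replicate 1 and 13.0 CPM in replicate 2 of knockout EBs. The part of these markers' cells in the carrier results was not tested. The control and knockout differentiation comparisons share no library. Higher in both were 19 genes, 63.3% of the 30 in control and 67.9% of the 28 in knockout cells, among them Slc40a1 (2.29 in control and 1.93 in knockout, log2 fold change), Slc7a8 (2.08 and 2.16), Slc23a1 (1.59 and 1.67), Slc7a7 (1.21 and 1.55) and Slc16a3 (1.01 and 1.35). Lower in both were 9 genes, 45% of 20 and 52.9% of 17, led by Slc13a5, which had 77.4 and 74.9 CPM in knockout ESCs and 7.46 and 9.28 in knockout EBs (log2 fold change -3.18 ± 0.17 SE, adjusted p = 4.58e-06). No member was called in opposite directions. Over all genes tested, genes higher in both made up 51.1% and 53.3% of the 2 lists, and genes lower in both 40.3% and 54.6%. Opposite calls were rare there too, with 0.951% of the genes higher in control and 0.970% of those lower in control.

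Several genes raised in knockout ESCs were lower again in knockout EBs. Slco2a1 went from 109 and 75.3 CPM in knockout ESCs to 38.9 and 38.4 in knockout EBs (log2 fold change -1.25 ± 0.17 SE, adjusted p = 0.000858). Slco3a1 fell from 17.6 and 20.4 to 7.83 and 9.13 CPM (log2 fold change -1.16 ± 0.20 SE, adjusted p = 0.00459) and Slc36a4 from 15.1 and 21.1 to 5.95 and 7.99 (log2 fold change -1.38 ± 0.24 SE, adjusted p = 0.00432). Control EBs held 30.0 and 29.0 CPM of Slco2a1, 7.82 and 6.04 of Slco3a1 and 7.03 and 5.88 of Slc36a4, so for the last of these the EB groups overlapped. Slc30a2, low in knockout ESCs, rose from 5.91 and 6.11 to 12.7 and 13.5 CPM (log2 fold change 1.13 ± 0.19 SE, adjusted p = 0.00387), and Slc22a23 from 9.11 and 6.70 to 18.4 and 17.3 CPM (log2 fold change 1.17 ± 0.21 SE, adjusted p = 0.00516). Slc7a6 (log2 fold change -0.60 ± 0.09 SE, adjusted p = 0.00181) and Slc25a4 (log2 fold change -0.53 ± 0.08 SE, adjusted p = 0.00257) were lower in knockout EBs. These comparisons share the knockout ESC libraries with the knockout effect in ESCs, so the values stand side by side only. The calls of this paragraph passed without any single library, except that Slco3a1 missed the threshold without knockout EB replicate 1 (adjusted p = 0.0502).

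Whether the knockout effect differed between EBs and ESCs was tested directly as the difference of the 2 log2 fold changes. It was called higher for 3 members and lower for 3, where 0.742% and 0.642% of all genes tested were called, 1.38% in all (1.08% and 0.936% of those that reached 5 CPM). Higher in EBs than in ESCs were the knockout effects of Slc15a1, at chr14:121459621-121505252, minus strand (-0.04 in ESCs and 1.65 in EBs, difference 1.69 ± 0.34 SE, adjusted p = 0.0437). The same held for Slc28a1, at chr7:81114799-81170416, plus strand (-1.02 and -0.02, difference 1.00 ± 0.18 SE, adjusted p = 0.0288), and for Slc29a1, at chr17:45585200-45599606, minus strand (-0.56 and 0.05, difference 0.61 ± 0.13 SE, adjusted p = 0.0499). Lower in EBs were those of Slc34a2, at chr5:53038081-53071664, plus strand (2.49 and 0.75, difference -1.73 ± 0.36 SE, adjusted p = 0.0471), of Slco2a1, at chr9:102988712-103096002, plus strand (1.72 and 0.39, difference -1.33 ± 0.24 SE, adjusted p = 0.0288), and Slc7a6 (1.07 and 0.38, difference -0.69 ± 0.13 SE, adjusted p = 0.0296). Slc15a1 stood apart in form: its level was alike in control and knockout ESCs and fell in control EBs to 1.86 and 2.82 CPM, while knockout EBs held 7.15 and 7.46 CPM. All 6 calls were lost without any one library other than the 2 of knockout ESCs (adjusted p from 0.0831 to 0.346), and the counts rose to 29 and 11 without knockout ESC replicate 1 and to 13 and 10 without knockout ESC replicate 2.

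The members were checked for the library with the high liver markers. Slc38a3, a glutamine transporter abundant in liver, was the 1 member over 3 times higher in knockout EB replicate 1 (38.9 CPM) than in any other library (6.55 to 10.1 CPM). Its knockout effect in EBs did not pass the test (log2 fold change 1.55 ± 0.49 SE, adjusted p = 0.0917), and its mean without that library was 8.21 CPM, so it stayed a member. No member fell under 5 CPM without that library. Slc7a2 (11.3 against 3.73 CPM in replicate 2), Slc27a2 (23.9 against 10.7), Slc47a1 (15.4 against 10.3) and Slc37a4 (12.3 against 6.01) were more than 1.5 times higher there than in the other knockout EB library, and none of them was called in that comparison. Among the solute carriers under 5 CPM, 18 were over 3 times higher in this library than in any other with at least 10 counts. Among them were the bile acid and organic anion carriers Slco1b2 (20.6 CPM, at most 0.549 elsewhere) and Slc10a1 (18.4, at most 1.25), the bile acid-activating Slc27a5 (17.6, at most 1.75) and the liver glucose transporter Slc2a2 (13.9, at most 2.13).

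**Figure D5:**
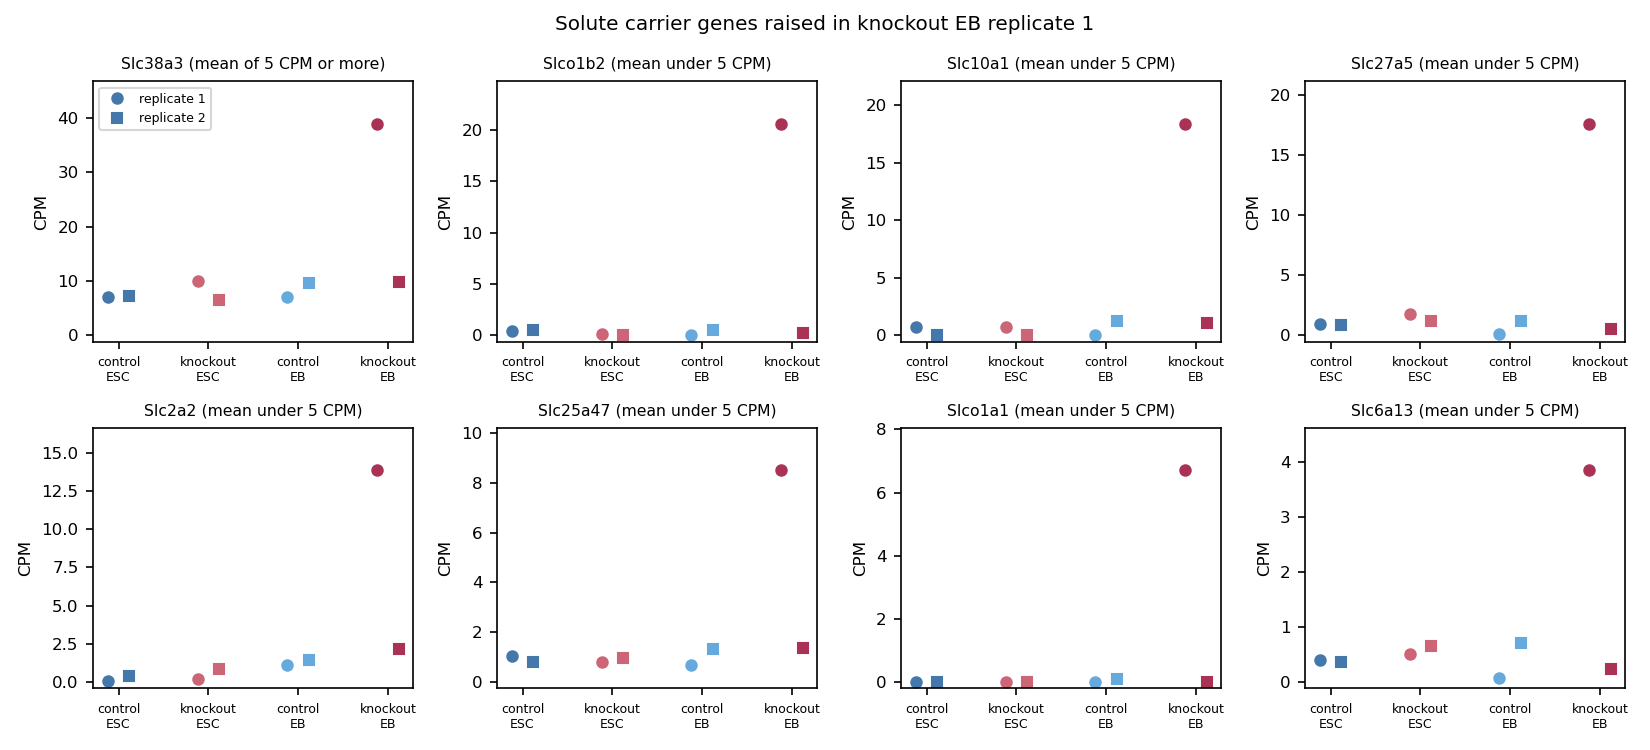
Level in CPM (linear axes, 1 panel per gene) of the 8 solute carrier genes that stood over 3 times higher in knockout EB replicate 1 than in any other library and had the highest levels there. Circles are replicate 1 and squares replicate 2 of each group; the knockout EB circle stands alone at the top of each panel, for Slc38a3 at 38.9 CPM with the other 7 libraries at 6.55 to 10.1 CPM.

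Transport proteins outside the Slc symbols and partners of the carriers were read from a list of 27 genes, 26 of them tested. In knockout ESCs 4 were higher and 1 lower (DESeq2: 4 and 1), beside 8.3% and 6.2% of all genes tested. Spns2, which exports sphingosine 1-phosphate, had 9.28 and 8.72 CPM in control and 37.6 and 26.6 CPM in knockout ESCs (log2 fold change 1.84 ± 0.20 SE, adjusted p = 0.000209). The other gains were the lysosomal cystine exporter Ctns (log2 fold change 0.56 ± 0.11 SE, adjusted p = 0.00618), the lysosomal exporter of cationic amino acids Pqlc2 (log2 fold change 0.76 ± 0.21 SE, adjusted p = 0.0351) and Nptn, a chaperone of the lactate transporters (log2 fold change 0.42 ± 0.11 SE, adjusted p = 0.0294). Pqlc1 was lower (log2 fold change -0.77 ± 0.20 SE, adjusted p = 0.0301). In knockout EBs 2 were higher and 2 lower (DESeq2: 1 and 1), beside 4.75% and 2.04% of all genes tested. Spns2 (log2 fold change 0.86 ± 0.21 SE, adjusted p = 0.0349) and the phosphate exporter Xpr1 (log2 fold change 0.47 ± 0.12 SE, adjusted p = 0.0394) were higher. Emb, another chaperone of lactate transporters (166 and 177 CPM in control and 123 and 129.7 in knockout, log2 fold change -0.44 ± 0.11 SE, adjusted p = 0.035), and the lysophospholipid importer Mfsd2a (log2 fold change -1.17 ± 0.29 SE, adjusted p = 0.0368) were lower. Mfsd2a was low throughout, at 6.23 and 6.74 CPM in control and 2.86 and 2.89 CPM in knockout EBs. Unlike those of the members, the partner calls are not given with a library left out. In control EBs against ESCs 6 of the 26 were higher and 3 lower (DESeq2: 6 and 2), and in knockout cells 3 and 1 (DESeq2: 4 and 1), beside 8.6% and 9.63%, and 8.23% and 7.11%, of all genes tested. For the difference of the knockout effect 0 were called by edgeR (unadjusted p below 0.05: 1 higher and 4 lower, DESeq2: 0 and 0).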

How the data were processed

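RNA selected for poly(A) tails was sequenced in 8 libraries, 2 per group, per the labels' protocols. The values are whole-number counts per gene deposited by the authors in 1 table with gene identifiers, coordinates and exon lengths. Gene symbols were matched to these identifiers, without their version, from a separate reference. HISAT2, featureCounts, DESeq2 and mm10 are named per the submitters' processing notes, while the sources used here do not give versions, strand setting or the handling of reads with several matches. Members were found by symbol and by CPM from column totals, on which their means over libraries also rest. Levels of single libraries, group levels and class sums are CPM from the totals of the tested genes times TMM factors. The level per kb is the latter CPM divided by the deposited exon length. Genes were tested with edgeR 4.0.16 (limma 3.58.1, R 4.3.3) by the quasi-likelihood test on all 8 libraries with TMM factors after edgeR's filter on low counts, with Benjamini-Hochberg adjustment over 17125 genes and a threshold of 0.05. The SE of a log2 fold change is its size divided by the square root of the F value. The tests were checked on simulated data with a common spread for all genes. These held neither the GC difference of the knockout ESC libraries nor liver RNA, so the check does not cover those features. Library depth was 12119763 to 16228426 counts.

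The members, substrate classes and lists were chosen with earlier results of these data known. Named are, per comparison, the 8 most raised and the 8 most lowered of the called members whose groups do not overlap, all called for the difference of effects, up to 3 called in either knockout comparison per class of at least 5 genes, the class leader and the 10 highest genes per length, members over 3 times higher in knockout EB replicate 1, 3 genes on either side of the threshold, and called partners. A called member that the rule would name is not reported here. Others are said to be picked after their values were seen. Alternatives were DESeq2 1.42.0, other scalings, filters and thresholds, a correction for GC content, a replicate block, fits on the compared groups alone, and leaving out libraries.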

Additional observations from a re-analysis of the deposited data

Results flagged for a closer look

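The knockout effect differed between EBs and ESCs for 6 members, by a test of the difference itself with edgeR over all genes. The values are log2 fold changes of knockout against control. For the peptide importer Slc15a1 the effect was -0.04 in ESCs and 1.65 in EBs, a difference of 1.69 (adjusted p = 0.0437). For the nucleoside carriers it was -1.02 and -0.02 in Slc28a1, a difference of 1.00 (adjusted p = 0.0288), and -0.56 and 0.05 in Slc29a1, a difference of 0.61 (adjusted p = 0.0499). The phosphate importer Slc34a2 had 2.49 and 0.75, a difference of -1.73 (adjusted p = 0.0471). The prostaglandin carrier Slco2a1 had 1.72 and 0.39, a difference of -1.33 (adjusted p = 0.0288). The amino acid exchanger Slc7a6 had 1.07 and 0.38, a difference of -0.69 (adjusted p = 0.0296). Each of these calls was lost without any one library of control ESCs, control EBs or knockout EBs.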

How the results depend on the processing

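Of the 125 calls of named members, 46 passed under every alternative that was fitted for them, 79 missed the threshold under at least 1, and 0 reversed. The crossed pairing was fitted for the 17 calls in knockout EBs only, and the fit on the compared groups alone for the calls other than those of the difference of effects. Counts are given as higher and lower members, without the share of all tested genes under the same alternative. Leaving out 1 library at a time, where the lone library left in a group is assumed to vary like the other groups, gave 10 to 40 and 5 to 40 in knockout ESCs, 3 to 32 and 0 to 14 in knockout EBs, 8 to 51 and 8 to 29 in control EBs against ESCs, 16 to 59 and 7 to 20 in knockout EBs against ESCs, and 0 to 29 and 0 to 11 for the difference of effects. Fits on the compared groups alone gave 18 and 9, 29 and 15, 50 higher in control EBs against ESCs, and 10 and 8 in knockout EBs against ESCs. A 2-fold limit left 11 and 4, 5 and 0, 11 and 7, and 9 and 4 in the first 4 comparisons. With the GC trend removed the counts were 25 and 13 in knockout EBs and 10 and 8 for the difference. Library totals without composition factors left 1 lower in knockout EBs, no low-count filter 9 lower there and 11 and 7 for the difference, a mean of at least 1 CPM left 1 higher for the difference, and DESeq2 gave 7 and 5 for it. Chosen after seeing the data, leaving out knockout ESC replicate 2 and knockout EB replicate 1 together gave 11 lower in knockout EBs, 50 higher in control EBs against ESCs, and 12 and 8 for the difference.

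Replicate numbers did not pair the libraries (correlations of deviations between same-numbered libraries from -0.238 to 0.0373). A replicate block left 1 higher and 2 lower for the difference of effects and gave 28 and 18, 13 and 2, 30 and 20, and 27 and 15 in the other comparisons. The crossed pairing of control and knockout EBs, also added after seeing the data, gave 14 and 2. A threshold of 10 or 2 CPM made 143 or 205 members. How depth (12119763 to 16228426 counts per library) limits the calls of members near 5 CPM was not tested.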
